A study of Ovis aries with 6 samples.

Results

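The KLF, SP and EGR genes encode zinc finger transcription factors. They are followed here through the change of sheep perirenal fat, the fat around the kidney, between late fetal life and early postnatal life. Members were taken by name, as every gene of the full table called KLF or EGR with a number, or SP with a single digit. That gave 24 of 24390 genes: 15 KLF genes, 5 SP genes and 4 EGR genes. RNA was sequenced from pure-bred wild type Merino animals, 3 lambs and 3 fetuses, each library from a separate animal. The lambs stayed with their mothers until weaning, and the labels put their age both at 89 days (± 7) and at 80 days from birth. Fetuses were collected at 132 ± 1 days of gestation, of a term of 150 days. Animals of both stages were untreated according to the labels, although the lamb titles also carry the unexplained letters VEH. Fetal tissue was collected after the ewe had been killed with a barbiturate and the uterus removed, whereas lambs were killed directly with the same agent, so the route of collection and the stage cannot be told apart.

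KLF, SP and EGR factors bind GC-rich sequence through a run of zinc fingers. The rest of the protein sets whether a target is switched on or off. Many KLF genes and EGR2 switch on in sequence when cultured mouse preadipocytes turn into fat cells, some pushing that change and others holding it back. EGR genes, and several KLF genes with them, are also early response genes, whose RNA rises within minutes of a growth factor, stretch or handling. SP1 and SP3 are broadly expressed factors of housekeeping promoters.

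Values per library are CPM, read counts scaled to a common library size with TMM factors, which correct for a few genes taking a large share of the reads. Differences are log2, lamb minus fetus, with the standard error and an adjusted p-value from edgeR fitted across all genes, and a gene was called at an adjusted p below 0.05. Libraries held 15907128 to 17263780 counts in lambs and 17535892 to 19150428 in fetuses. Transcripts of the mitochondrial genome took 7.37 to 8.29% of the counts in lambs and 27.5 to 40.7% in fetuses, and a scaling by library totals alone shifted the median log2 difference of all genes to 0.46, against -0.01 with TMM. Adipocyte markers were present in every library, with a summed CPM of 7 genes of 29066 to 40104 in lambs and 13556 to 17023 in fetuses. Kidney markers were near 0 in all libraries, at 0.549 to 1.09 CPM summed over 5 genes in lambs and 0.657 to 2.35 CPM in fetuses, with AQP2 and SLC34A1 at 0 counts in every library. In tissue RNA of this kind, fewer cells of a type and less RNA per cell cannot be told apart.

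Of the 24 members, 20 passed the filter on low counts and 13 of those were higher in lambs: KLF2, KLF3, KLF4, KLF6, KLF7, KLF8, KLF9, KLF11, KLF15, SP1, EGR1, EGR2 and EGR3. Among all 13624 genes tested, 44.7% were called, 22.0% higher and 22.7% lower. By edgeR 0 members were lower at the adjusted threshold, 1 (KLF13) was lower at an unadjusted p below 0.05, and DESeq2, the edgeR exact test and limma-voom called 0 lower. KLF5, KLF10, KLF12, KLF13, SP2, SP3 and SP4 did not pass. In 10 of the 13 called members the increase exceeded 2-fold, and 10.0% of all genes tested were called higher by that much. The 20 members had a median log2 difference of 0.98, beside -0.01 over all genes tested. All 3 lamb values lay above all 3 fetal values for the same 13 members, an arrangement found in 28.2% of all genes, and below them for KLF13 alone among the 20, an arrangement found in 29.5%. The 13 were also called higher with DESeq2 size factors, upper quartile factors, library totals and totals without mitochondrial genes. With library totals 16 members were higher, and so were 41.2% of all genes tested.

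**Figure D1:**
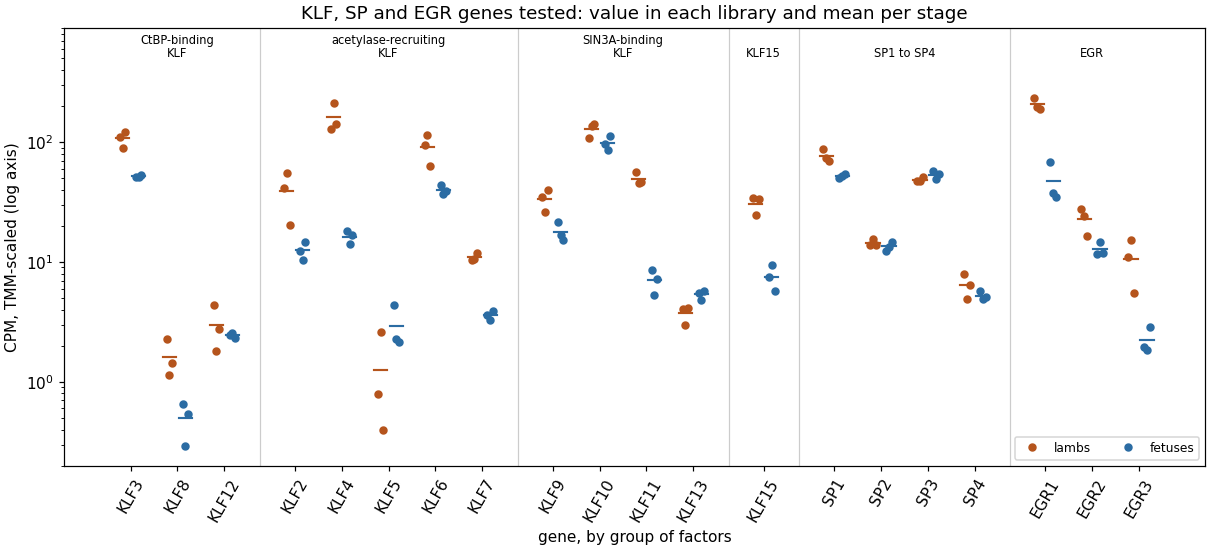
CPM in each library on a log axis for the 20 members tested, lambs left of fetuses for each gene, with points for the 3 libraries of a stage and a line at their mean. KLF4 has all lamb values between 129.9 and 213 CPM and all fetal values between 14.04 and 18.0 CPM, whereas the SP3 values of the stages lie close together, between 47.2 and 57.3 CPM.

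The activating KLF proteins, which recruit histone acetylases, held the member with the largest change. KLF4, known from pluripotency, from vessel walls and as an early activator of CEBPB in mouse preadipocytes, is on chromosome 2, 15622345 to 15625917 on Oar v3.1 (ENSOARG00000007169). Its lamb libraries had 129.9, 213 and 142 CPM, against 18.0, 14.04 and 16.7 CPM in the fetal libraries. The lowest lamb value was 7.22 times the highest fetal value, and the log2 difference was 3.31 ± 0.23, or 9.94-fold (adjusted p = 7.60e-05). By size of increase KLF4 stood at place 120 of the 13624 genes. KLF2, a flow-induced factor of endothelium and of resting T cells that restrains fat cell formation in mouse cells, had 41.1, 55.4 and 20.5 CPM in lambs, against 12.4, 10.4 and 14.7 CPM in fetuses. Lamb libraries differed among themselves by 2.70-fold for KLF2, more than fetal ones did (1.42-fold), yet none came down to the fetal range (log2 difference 1.64 ± 0.34, adjusted p = 0.00637).

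KLF6, which lowers DLK1 in mouse preadipocytes, had 94.3, 114 and 63.6 CPM in lambs, against 43.7, 36.8 and 39.3 CPM in fetuses (log2 difference 1.18 ± 0.21, adjusted p = 0.00329). KLF7, a factor of neurons that holds back fat cell formation in human and mouse cells, had 10.5, 10.5 and 12.0 CPM in lambs, against 3.58, 3.31 and 3.94 CPM in fetuses. KLF7 was the most even of the called members within lambs, with a highest value 1.15 times the lowest, and its log2 difference was 1.60 ± 0.17 (adjusted p = 3.27e-04).

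KLF5, a factor of epithelia and vascular smooth muscle and an early promoter of fat cell formation in mice, was the member with the lowest fitted difference. It had 0.790, 2.59 and 0.399 CPM in lambs, against 4.36, 2.28 and 2.15 CPM in fetuses. The stages overlapped, because lamb 2 lay above fetuses 2 and 3, and the test was not passed (log2 difference -1.22 ± 0.65, 95% interval -2.72 to 0.28, adjusted p = 0.161). Without lamb 2 the difference was -2.28 with an adjusted p of 0.0157, within a range of 0.0157 to 0.404 over the alternatives. The 10 epithelial markers, uroplakins and keratins among them, summed to 0.889, 0.985 and 0.499 CPM in lambs and to 213, 83.0 and 60.9 CPM in fetuses. All 10 were lower in lambs, beside 22.7% of all genes tested. Within fetuses, KLF5 and this sum had the same order, while lamb 2 had its KLF5 with epithelial markers below 1 CPM. Smooth muscle and pericyte markers summed to 314, 1092 and 400 CPM in lambs and to 564, 407 and 289 CPM in fetuses, where KLF5 had the same order too. MYH11, TAGLN and CNN1 were highest in lamb 2 among lambs. The pericyte markers were lowest in lamb 2, with RGS5 at 76.3, 33.2 and 74.8 CPM and CSPG4 at 53.4, 31.8 and 52.6 CPM in lambs. The part of either cell type in the KLF5 values was not tested.

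Of the 4 SIN3A-binding members, which recruit a histone deacetylase complex, KLF11 and KLF9 rose, while KLF10 and KLF13 did not pass. KLF11, a factor tied to the browning of human adipocytes and to insulin gene control, is on chromosome 3, 19123188 to 19131471 (ENSOARG00000015319). It had 55.9, 45.8 and 46.1 CPM in lambs, against 8.60, 5.29 and 7.27 CPM in fetuses. Its lowest lamb value was 5.33 times its highest fetal value, and the log2 difference was 2.80 ± 0.19, or 6.95-fold (adjusted p = 7.99e-05). Over the same samples UCP1, the uncoupling protein of brown fat, was at 387, 524 and 516 CPM in lambs, against 1630, 2162 and 1102 CPM in fetuses. A link between KLF11 and UCP1 was not tested.

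KLF9, which is induced by glucocorticoid and thyroid hormone and activates PPARG in mouse preadipocytes, had 34.6, 26.0 and 40.0 CPM in lambs, against 21.6, 16.8 and 15.1 CPM in fetuses (log2 difference 0.91 ± 0.20, adjusted p = 0.00825). KLF10, which responds to transforming growth factor beta, had 109, 135 and 142 CPM in lambs, against 97.0, 85.3 and 112 CPM in fetuses. Only the lowest lamb value fell below the highest fetal value, and the difference of 0.39 ± 0.16 (95% interval 0.03 to 0.75) missed the threshold at an adjusted p of 0.0744. It passed without lamb 1 (0.50, adjusted p = 0.0368), with DESeq2 (adjusted p = 0.0443) and with library totals (0.85, adjusted p = 0.00925), within a range of 0.00925 to 0.204 over the alternatives. KLF13, a broadly expressed factor best known in T cells, had 4.05, 3.01 and 4.14 CPM in lambs, against 5.55, 4.85 and 5.72 CPM in fetuses. Every lamb value was below every fetal value, but the test was not passed (log2 difference -0.53 ± 0.21, 95% interval -1.02 to -0.03, adjusted p = 0.0796), and with library totals the difference was -0.07.

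Among the CtBP-binding members, which recruit the corepressor CtBP, KLF3 and KLF8 rose and KLF12 did not pass. KLF3, a repressor that restrains CEBPA in mouse preadipocytes, is on chromosome 6, 57915094 to 57933985. It had 111, 88.7 and 122 CPM in lambs, against 51.2, 51.4 and 53.2 CPM in fetuses, and fetal libraries differed by only 1.04-fold (log2 difference 1.05 ± 0.14, adjusted p = 9.44e-04). KLF8 was low, with 2.27, 1.14 and 1.45 CPM in lambs, against 0.657, 0.294 and 0.537 CPM in fetuses (log2 difference 1.68 ± 0.44, adjusted p = 0.0165). The KLF8 call was lost without lamb 1 (adjusted p = 0.0552) or without fetus 2 (adjusted p = 0.0588), within a range of 0.00266 to 0.0588. KLF12 had 4.34, 1.81 and 2.75 CPM in lambs, against 2.45, 2.57 and 2.33 CPM in fetuses. The lamb values lay on both sides of the fetal ones, and the difference of 0.28 ± 0.34 (95% interval -0.52 to 1.08, adjusted p = 0.535) turned to -0.10 without lamb 1.

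KLF15, which stands outside these groups, is a glucocorticoid-induced activator of amino acid breakdown and of the insulin-responsive glucose transporter gene SLC2A4 in mice (chromosome 19, 59765042 to 59766117, ENSOARG00000006771). It had 33.9, 24.6 and 33.6 CPM in lambs, against 7.47, 9.48 and 5.72 CPM in fetuses. The stages were well apart, with a lowest lamb value 2.59 times the highest fetal value and a log2 difference of 2.02 ± 0.22, or 4.07-fold (adjusted p = 3.69e-04).

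**Figure D2:**
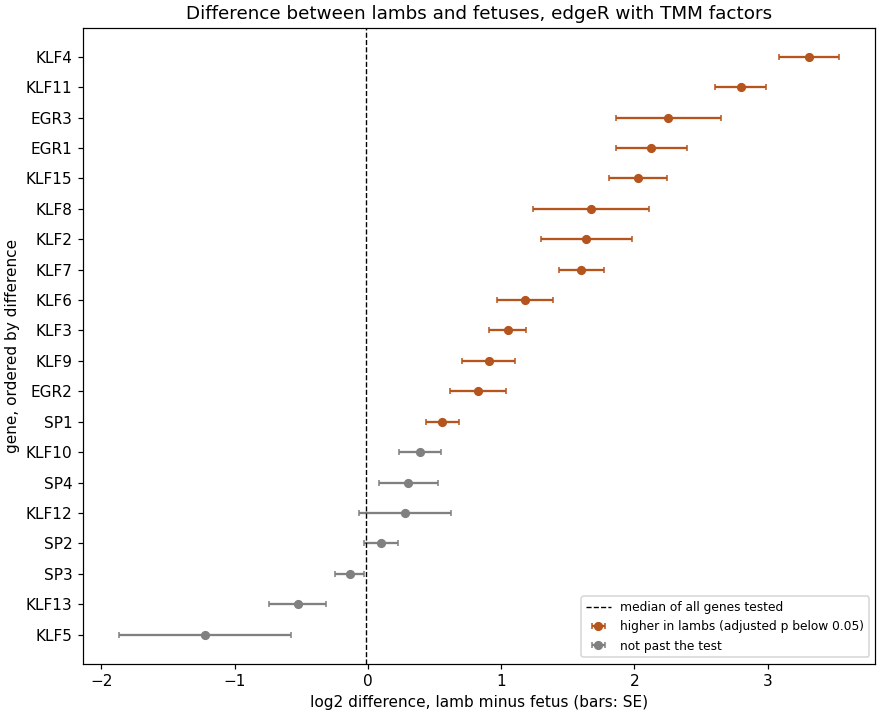
Log2 difference, lamb minus fetus, with its standard error for the 20 members tested, ordered by size, beside the median of all genes tested (dashed line at -0.01). The 13 members past the test run from SP1 at 0.56 to KLF4 at 3.31, and KLF5 has the widest error at ± 0.65; with library totals SP3 turns to 0.33, and without lamb 1 KLF12 turns to -0.10.

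The EGR genes passed the test wherever they could be tested. EGR1, the main early growth response factor, which holds back fat cell formation in mouse cells, is on chromosome 5, 47225278 to 47227722 (ENSOARG00000016470). It had 235, 196 and 188 CPM in lambs, against 68.6, 37.7 and 35.2 CPM in fetuses. Fetus 1 stood 1.95-fold above fetus 3 but far below the lambs, and the log2 difference was 2.13 ± 0.27, or 4.37-fold (adjusted p = 7.22e-04). EGR3, an EGR1 relative known from muscle spindles and lymphocytes, had 11.1, 15.4 and 5.54 CPM in lambs, against 1.97, 1.84 and 2.86 CPM in fetuses. Its lamb libraries differed by 2.78-fold, the widest spread within lambs among the called members, and its difference was 2.25 ± 0.40 (adjusted p = 0.00311).

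EGR2, also called Krox20, promotes fat cell formation in mouse preadipocytes and controls myelination in Schwann cells. It had 27.4, 24.2 and 16.4 CPM in lambs, against 11.7, 14.8 and 11.9 CPM in fetuses, so that lamb 3 was only 1.11 times the highest fetus. The difference of 0.83 ± 0.21 passed with an adjusted p of 0.0148. The call was lost without fetus 1 (adjusted p = 0.0512) or without fetus 3 (adjusted p = 0.0545), within a range of 8.20e-04 to 0.0545. The 6 Schwann cell markers summed to 137 to 204 CPM in lambs and 39.1 to 44.1 CPM in fetuses. Most of the sum came from S100B, which adipocytes express too. Of the 6 markers, S100B and PMP22 were higher, or 33.3% beside 22.0% of all genes tested. SOX10, the lineage factor of Schwann cells, had 3.65, 4.61 and 3.99 CPM in lambs, against 3.11, 3.75 and 4.29 CPM in fetuses, and did not pass. The part of Schwann cells in the EGR2 difference was not tested.

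Of the SP genes, SP1 rose and the others did not pass. SP1 had 88.4, 73.3 and 69.3 CPM in lambs, against 50.3, 52.2 and 54.2 CPM in fetuses, the smallest difference among the called members (log2 difference 0.56 ± 0.12, adjusted p = 0.00871). SP3, which competes with SP1 for the same sites, had 47.2, 47.7 and 51.2 CPM in lambs, against 57.3, 49.6 and 53.7 CPM in fetuses. Its difference was -0.14 ± 0.11 (95% interval -0.38 to 0.11, adjusted p = 0.322) and 0.33 with library totals. SP2 had 13.97, 15.6 and 13.98 CPM in lambs, against 12.4, 13.4 and 14.8 CPM in fetuses, with a log2 difference of 0.10 ± 0.13 (95% interval -0.20 to 0.40). SP4, a neuronal relative, had 7.997, 4.93 and 6.44 CPM in lambs, against 5.67, 4.92 and 5.07 CPM in fetuses (0.31 ± 0.22, 95% interval -0.21 to 0.82). SP2 and SP4 passed with library totals (adjusted p = 0.0356 and 0.0360), within ranges of 0.0356 to 0.884 and 0.0360 to 0.668.

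The 4 members that failed the filter had few reads in both stages. KLF1, the master factor of red cells, had 0, 0 and 1 counts in lambs, against 9, 4 and 2 in fetuses. The ratio of lambs to fetuses was 0.0527, with an exact 95% interval of 0.00125 to 0.343 that covers counting error only. The authors' deposited table also calls KLF1 lower in lambs (adjusted p = 0.0198). Red cell markers, 6 of 9 listed genes in the table, summed to 50.4 to 79.7 CPM in lambs and 374 to 1294 CPM in fetuses. Most of each fetal sum came from HBB, listed as HBBB, at 564, 1216 and 321 CPM. The sum was highest in fetus 2, whereas KLF1 had its most counts in fetus 1. Of these markers 3 of 5 tested were lower, beside 22.7% of all genes tested. The part of red cells in KLF1 was not tested. EGR4, a factor of brain and lymphocytes, had 1, 0 and 1 counts in lambs and 0 in every fetus, where 0 counts allow up to 0.179, 0.220 and 0.179 CPM. KLF17, a factor of the early human embryo, had 11 counts in lambs, 9 of them in lamb 1, and 8 in fetuses. SP5, a target of WNT signalling, had 9 counts in lambs and 5 in fetuses, and for neither gene was a difference detectable at this depth. KLF14, KLF16, SP6, SP7, SP8 and SP9 were not analysed here.

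By their known effect in mouse preadipocytes, members on both sides rose. Of 6 members that promote fat cell formation (KLF4, KLF5, KLF6, KLF9, KLF15 and EGR2), 5 were higher and KLF5 did not pass, with a median log2 difference of 1.04. Of the members that restrain it, KLF2, KLF3, KLF7 and EGR1 were tested and all 4 were higher, with a median of 1.62. Over all genes tested 22.0% were higher and the median was -0.01. The factors of fat cell formation on which these proteins act also differed. PPARG, listed as PPARG2, had 598, 468 and 545 CPM in lambs, against 309, 368 and 345 CPM in fetuses (log2 difference 0.66 ± 0.15), and CEBPD, its early activator, rose by 2.29 ± 0.16. CEBPB rose by 0.55 ± 0.19 with an adjusted p of 0.0492. The list held 2 instead of 3 risen genes without any 1 library other than fetus 3. With all libraries it also held 2 under upper quartile factors and under library totals without mitochondrial genes. The same number rose when every gene with at least 1 count was tested, and with at least 5 CPM in 3 libraries. CEBPA, which KLF3 represses in mouse cells, had 50.4, 24.9 and 36.9 CPM in lambs, against 85.5, 82.9 and 109.7 CPM in fetuses. That was a fall of 1.31 ± 0.25 on the log2 scale, and the part of KLF3 in it was not tested.

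Levels of different members can be set side by side only per length, and for that the authors' deposited table gives mean RPKM per stage, without replicate error. These values follow library totals and not TMM factors, so a lamb mean set beside a fetal mean carries the shift of 0.46 in log2 given above, and the order within a stage does not. By those means KLF2 stood first in both stages, at 113 RPKM in lambs and 30.4 RPKM in fetuses. In lambs EGR1 (108 RPKM), KLF4 (105 RPKM), KLF6 (64.5 RPKM) and KLF9 (61.5 RPKM) came next. In fetuses KLF9 (27.2 RPKM), SP3 (20.9 RPKM), KLF6 (19.8 RPKM) and EGR1 (18.5 RPKM) followed KLF2, while KLF4 was at place 9 with 8.69 RPKM. KLF11 stood at place 6 in lambs with 35.4 RPKM and at place 14 in fetuses with 3.52 RPKM, and SP3 at place 10 in lambs and 3 in fetuses. KLF8 and KLF13 were left out of this order of 22 members. Dividing their counts by the RPKM implied lengths of 119.7 and 33.1 bases in lambs and 36.7 and 24.7 bases in fetuses, and a length below the 50-base read cannot be that of the gene model. What sets the RPKM and counts of KLF8 and KLF13 apart was not tested. Among the ranked members, lengths implied in lambs and fetuses were 410 and 355 bases for KLF2, 643 and 558 for KLF9. They were 302 and 259 bases for KLF12, against 2255 and 2181 for EGR1. A short length raises the RPKM, so the first place of KLF2 depends on it. In CPM, KLF2 had a lamb mean of 39.0 and EGR1 of 206. For KLF8 the authors' RPKM means gave a ratio of lambs to fetuses of 1.35, whereas the counts with TMM gave 3.19. The log2 difference from the counts was 1.68 with TMM and 2.13 with library totals, so the size of the KLF8 difference is uncertain. The authors' deposited comparison called the same 13 of the 20 tested members higher.

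**Figure D3:**
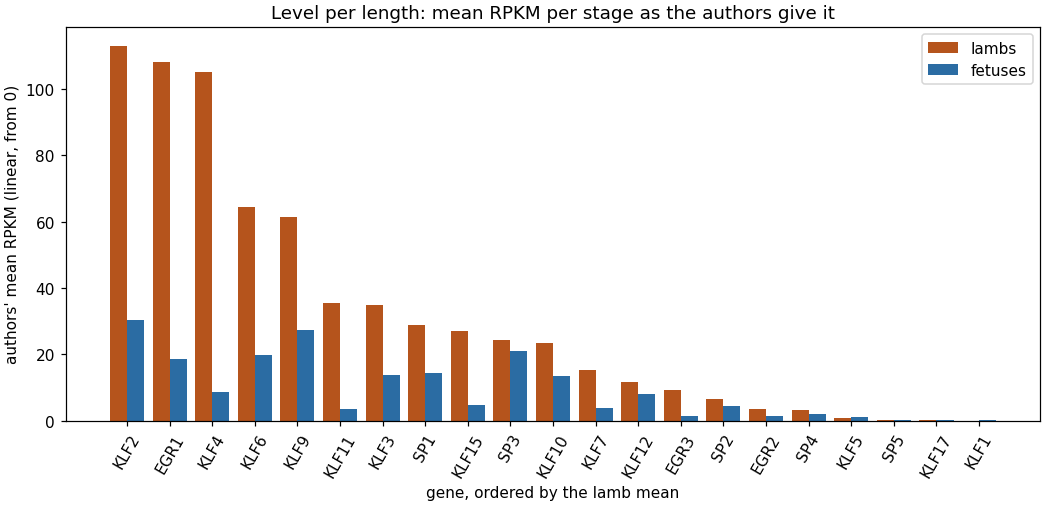
Mean RPKM per stage as the authors' deposited table gives it, on a linear axis from 0, lambs left of fetuses, for 21 members ordered by the lamb mean; KLF8, KLF13 and EGR4 are not drawn. KLF2, EGR1 and KLF4 exceed 100 RPKM in lambs, at 113, 108 and 105, whereas the highest fetal mean is that of KLF2 at 30.4 RPKM. The KLF2 bars depend on a short implied length, 410 bases in lambs and 355 in fetuses. RPKM follow library totals, which shift lambs up against fetuses by 0.46 in log2.

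No single library was the highest of its stage for most members, but fetus 2 was the lowest fetus for 11 of 20, beside 36.0% of all genes tested. Lamb 2 was the highest lamb for KLF2, KLF4, KLF5, KLF6, SP2 and EGR3, lamb 1 for 8 of the 20 members and lamb 3 for 6. Lamb 2 was the lowest lamb for KLF3, KLF8, KLF9, KLF11, KLF12, KLF13, KLF15 and SP4. Other early response genes leaned to other libraries: 13 of 20 were highest in lamb 2 among lambs and 15 of 20 were highest in fetus 1 among fetuses, beside 32.3% and 32.2% of all genes tested. FOS, for example, had 170.1, 229 and 164 CPM in lambs, against 28.7, 27.1 and 9.18 CPM in fetuses, and NR4A1, a nuclear receptor induced by the same stimuli, had 66.6, 191 and 100.4 CPM in lambs, against 26.4, 25.3 and 17.2 CPM in fetuses. EGR1 was highest in fetus 1 like most of these genes, but in lambs it was highest in lamb 1.

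**Figure D4:**
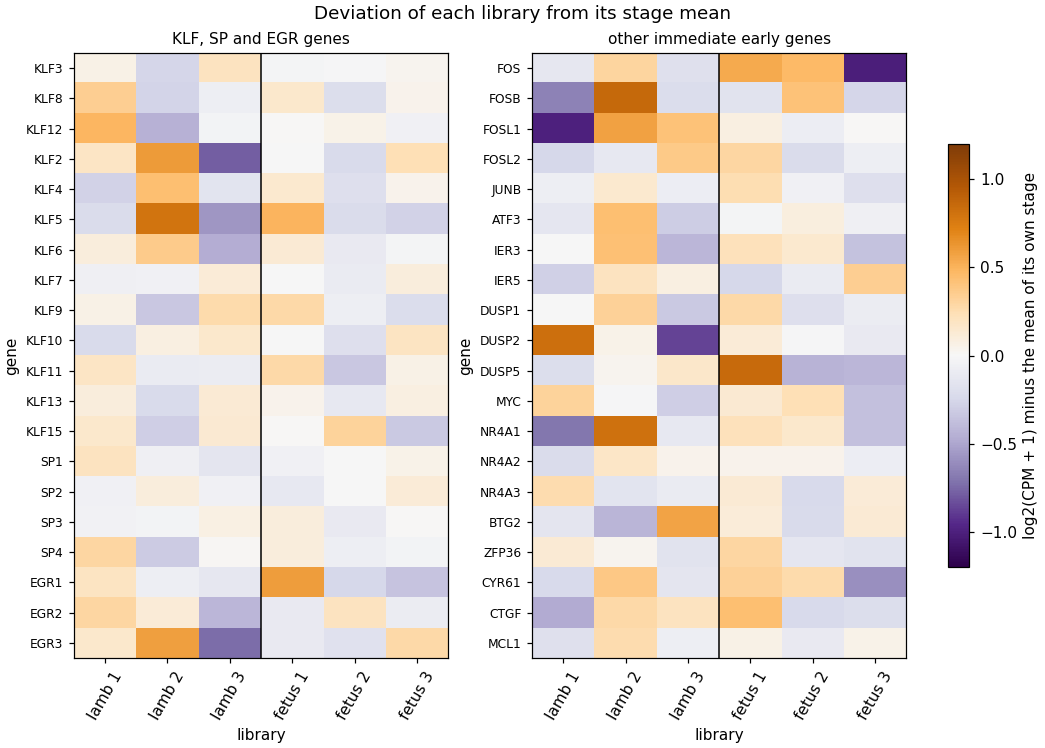
Deviation of each library from the mean of its own stage, in log2(CPM + 1), for the 20 members tested (left) and 20 other early response genes (right), with lambs left of fetuses. KLF2, KLF6, EGR3 and KLF5 are highest in lamb 2 and lowest in lamb 3, while KLF9 and KLF3 are lowest in lamb 2; on the right 13 of 20 genes are highest in lamb 2.

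Early response genes other than the members were higher in lambs almost throughout. Of 24 listed, 20 were tested and 18 were higher, with a median log2 difference of 2.52. Among all genes tested 22.0% were higher, and their median was -0.01. NR4A3, a nuclear receptor, had 31.1, 23.1 and 24.1 CPM in lambs, against 0.478, 0.147 and 0.477 CPM in fetuses (log2 difference 6.08 ± 0.31). ATF3, a stress-induced factor, rose by 4.30 ± 0.23. FOSL1, an AP-1 subunit, had 1.68, 6.95 and 6.14 CPM in lambs and only 3 counts in all over the fetuses. Of the members known as early response genes themselves, EGR1, EGR2, EGR3, KLF2, KLF4 and KLF6 rose, KLF10 did not pass and EGR4 had too few reads to be tested. The share of such a response in their difference was not tested.

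For the signalling genes that drive EGR genes and, through MEF2 factors, KLF2 and KLF4, the share of higher genes was near that of all genes, 22.2% beside 22.0%. MEF2D, MAP2K1, SRF and MEF2A made up the 4 of 18 that rose, MEF2C and MKL2 fell, and the median over the list was 0.01. SRF, the serum response factor that switches on EGR1, had 26.6, 31.4 and 25.3 CPM in lambs, against 14.1, 14.8 and 15.7 CPM in fetuses (log2 difference 0.90 ± 0.13, adjusted p = 0.00125). MEF2D rose by 0.99 ± 0.11 and the kinase gene MAP2K1 by 0.91 ± 0.14, whereas MEF2C fell by 0.91 ± 0.18. With library totals 9 of the 18 were higher and 0 lower, where 41.2% of all genes were higher.

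Cofactors of the members were also mixed, with a median of 0.17. Of 16 tested, 6 rose, or 37.5% beside 22.0% of all genes, 3 fell and 7 missed the threshold. With library totals 10 rose, where 41.2% of all genes did, and 1 fell, and without lamb 2, lamb 3 or any 1 fetus 4 rose. NAB1 and NAB2 bind EGR proteins and curb them. NAB2, itself an EGR target, had 23.0, 32.7 and 35.7 CPM in lambs, against 21.4, 19.9 and 21.6 CPM in fetuses (log2 difference 0.54 ± 0.17, adjusted p = 0.0373), while NAB1 fell by 0.65 ± 0.14. Deacetylase HDAC1, recruited through SIN3A, had 141, 159.6 and 129.6 CPM in lambs, against 386, 407 and 431 CPM in fetuses, a fall of 1.51 ± 0.13. The acetylase gene KAT2B rose by 1.13 ± 0.18, the ubiquitin ligase gene FBXW7, whose product marks KLF2 and KLF5 for breakdown, by 0.94 ± 0.11, and the sugar transferase gene OGT, which modifies SP1, by 0.74 ± 0.15. The corepressor genes CTBP1 (-0.13 ± 0.12), SIN3A (0.26 ± 0.11) and SIN3B (0.00 ± 0.12) did not pass.

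KLF9 and KLF15 belong to the genes that glucocorticoid induces, and in a list of such genes with the receptor gene NR3C1 and with HSD11B1, which activates the hormone, 9 of the 12 tested rose and 1 fell. Their median was 1.93, beside -0.01 over all genes, of which 22.0% were higher. PDK4, which turns down glucose oxidation, had 3773, 3770 and 4734 CPM in lambs, against 100.8, 166 and 60.6 CPM in fetuses (log2 difference 5.23 ± 0.41). FKBP5, a chaperone of the glucocorticoid receptor, rose by 4.75 ± 0.39 and the metallothionein gene MT2A, listed as MT2, by 4.76 ± 0.46. ANGPTL4, a lipoprotein lipase inhibitor, fell by 2.17 ± 0.20. The receptor gene itself, NR3C1, had 227, 149.7 and 198 CPM in lambs, against 207, 198 and 207 CPM in fetuses, and did not pass (-0.09 ± 0.16).

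Known targets of single members went in different directions. Among 11 EGR1 targets, 6 rose, NAB1 fell and 4 missed the threshold (median 0.56, beside -0.01 over all genes). The share that rose was 54.5%, beside 22.0% of all genes. With library totals 9 rose, where 41.2% of all genes did, and 0 fell, and without lamb 2, lamb 3 or fetus 3 4 rose. ICAM1, an adhesion molecule, rose by 2.20 ± 0.22, the growth factor gene FGF2 by 1.495 ± 0.16 and ID3, an inhibitor of differentiation, by 1.02 ± 0.11. Of the KLF15 targets known from mouse liver and muscle, 3 of 7 were tested. BCAT2, which starts the breakdown of branched-chain amino acids, rose by 0.60 ± 0.14. ACSS2, which makes acetyl-CoA from acetate, had 888, 759 and 2158 CPM in lambs, against 1437, 1781 and 1552 CPM in fetuses, and did not pass (-0.33 ± 0.38). Lamb 3 stood apart for ACSS2, and without it the difference was -0.95 and the list held 2 lower genes, against 1 with all libraries. SLC2A4 had 16.3, 8.30 and 20.2 CPM in lambs, against 47.8, 65.3 and 68.9 CPM in fetuses (-2.02 ± 0.31). KLF15 was higher in lambs and SLC2A4 in fetuses, and the link between them known from mouse muscle was not tested here.

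Of the endothelial and T cell targets of KLF2 and KLF4, 3 of 6 rose, 1 fell and 2 missed the threshold, beside 22.0% higher and 22.7% lower over all genes. The median of 1.02 is the midpoint between S1PR1, a lipid receptor gene of lymphocyte traffic at 0.15, and THBD at 1.89, and it was 0.16 when every gene with at least 1 count was tested. THBD, thrombomodulin, which KLF2 induces in endothelium, had 53.5, 97.2 and 94.2 CPM in lambs, against 24.8, 15.6 and 25.7 CPM in fetuses (1.89 ± 0.28). NOS3, the endothelial nitric oxide synthase and likewise induced by KLF2, had 93.9, 162 and 138 CPM in lambs, against 354, 429 and 373 CPM in fetuses (-1.55 ± 0.21). CCL2, a chemokine gene that KLF2 represses in cultured endothelium, rose by 2.90 ± 0.29. The part of KLF2 and KLF4 in the values of these targets was not tested.

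**Figure D5:**
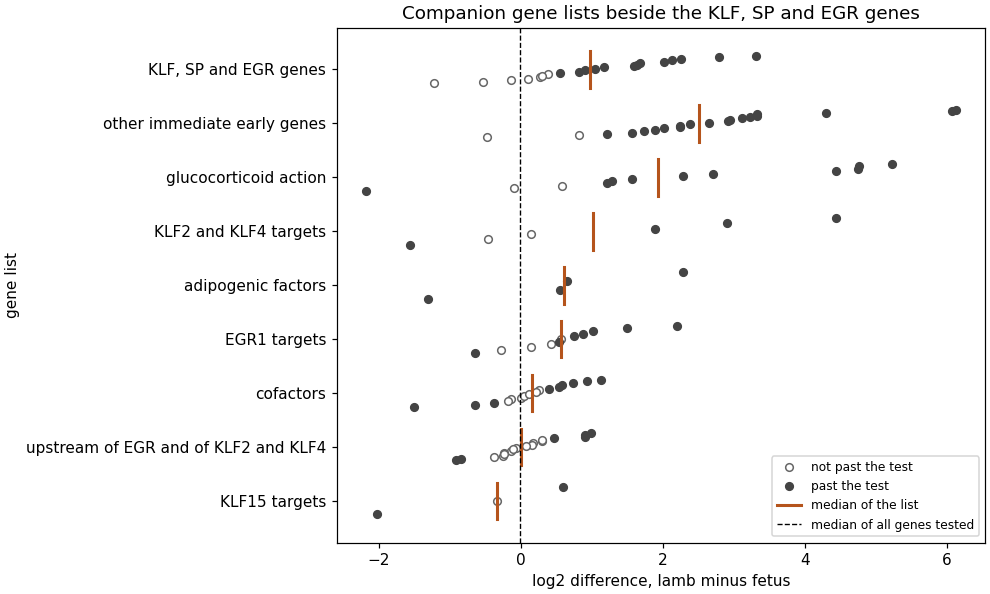
Log2 difference, lamb minus fetus, of each tested gene in 8 companion lists and of the 20 tested members, with filled points past the test, open points not past it, a bar at the list median and a dashed line at the median of all genes (-0.01). Other early response genes (median 2.52) and glucocorticoid action (1.93) lie furthest right, while cofactors (0.17) and upstream genes (0.01) straddle 0. With library totals the medians of cofactors and upstream genes are 0.64 and 0.48, beside 0.46 over all genes.

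Markers of fat cells and of other cells in which these factors are known moved with some members and not with others. Of the 7 adipocyte markers 6 rose, where 22.0% of all genes tested were higher and 22.7% lower. The median difference of these markers was 1.44 in log2, beside 0.98 over the 20 members. Brown adipocyte markers went the other way, with 0 of 5 higher, 4 lower and a median of -1.86. They summed to 474 to 587 CPM in lambs and 1386 to 2536 CPM in fetuses. The part of fat cells in the members' values was not tested. Of the endothelial markers 7 of 9 listed were in the table and summed to 1512 to 1610 CPM in lambs and 1467 to 1849 CPM in fetuses, 2 of them higher and 2 lower, while KLF2 and KLF4 were above the fetal range in every lamb. Macrophage markers summed to 1118 to 1364 CPM in lambs and 116 to 218 CPM in fetuses, largely through MRC1, and 6 of 7 were higher, as were KLF4, KLF6, EGR1 and EGR2, which macrophages also express. T and NK cell markers summed to 24.8, 15.4 and 5.89 CPM in lambs and 5.19 to 8.60 CPM in fetuses, with 1 of 5 tested higher. KLF2 was lowest in lamb 3, as was this sum, but it was highest in lamb 2 and the sum in lamb 1. B and plasma cell markers summed to 5.29 to 21.7 CPM in lambs and 6.68 to 7.35 CPM in fetuses, with 1 of 3 tested higher. The part of these cells in the members' differences was not tested.

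In the genome the members were spread over 14 chromosomes, with 6 on chromosome 2 (KLF4, KLF7, KLF9, SP3, SP5 and EGR3). The closest pair, KLF5 and KLF12 on chromosome 10, lay 0.703 Mb apart on Oar v3.1 and neither passed the test. KLF1 and KLF2 on chromosome 5 lay 4.32 Mb apart, and of these KLF2 was higher in lambs while KLF1 had 1 count in lambs and 15 in fetuses. KLF13 was the member that overlapped another gene with counts, TRPM1, which held 20 counts in lambs and 7 in fetuses.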

How the data were processed

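The authors deposited whole-number read counts for each gene in each library. Per the labels, TruSeq RNA libraries gave single-end 50-base reads, and those passing quality filters were mapped in CLC Genomics Workbench 7.0 to Ensembl models (Oar v3.1). Settings, multiple placements and strand were not given in the sources used here. The authors' deposited table also holds mean RPKM per stage and, from their edgeR comparison, a signed fold score with its p-value and corrected p-value. The 12 per-library RPKM columns were not used, because a column name is repeated. The 23 members in the prefiltered table have the same counts there.

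In R 4.3.3, edgeR 4.0.16 was run on the counts with filterByExpr, TMM factors and the quasi-likelihood F test, adjusted by Benjamini-Hochberg over 13624 genes. SE is the log2 difference divided by the root of F; 95% intervals use the moderated degrees of freedom. Self-tests on simulated counts were run. Alternatives used DESeq2 1.42.0 and limma 3.58.1 among others. Members and gene lists were chosen with earlier results of these data known. All members are described. From each list the text names up to 3 called genes with the largest change in the commoner direction and 1 in the other. A fixed few are named besides (NAB1, NAB2, CTBP1, SIN3A, SIN3B, SRF, NR3C1, FOS and the C/EBP and PPARG genes). NR4A1, ACSS2, MEF2A, MKL2, S1PR1, HSD11B1 and UCP1 were added after their values were seen. So were the marker genes named singly (S100B, PMP22, SOX10, MRC1, MYH11, TAGLN, CNN1, RGS5, CSPG4 and HBB). Older names were matched by hand or through RefSeq synonyms (C-FOS, ICAM-1, HSL, HBBB, 3BHSD, PPARG2, MT2 and IGJ). Some genes are in 2 lists, and some list members are not reported here. Marker lists not mentioned in the results were fibroblasts, skeletal muscle, adrenal cortex and mesothelium. Of fibroblast markers 2 of 8 tested were higher, and of skeletal muscle markers 2 of 3 were lower. Adrenal cortex had 2 tested, neither called, and mesothelium had 1 of 2 lower. Over all genes tested 22.0% were higher and 22.7% lower.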

Additional observations from a re-analysis of the deposited data

How the results depend on the processing

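Over 316 refits of single members, 304 kept their direction and their side of the threshold, 4 lost a call (EGR2 and KLF8, each without 1 of 2 libraries), 6 gained one and 2 turned direction. Those that turned were KLF12 at -0.10 without lamb 1 (range -0.10 to 0.54 on leaving out 1 library) and SP3 at 0.33 with library totals. EGR1, EGR3, KLF2, KLF3, KLF4, KLF6, KLF7, KLF9, KLF11, KLF15 and SP1 stayed called higher in all 16 alternatives. The number of members higher in lambs was 12 to 16 over the alternatives, and 12 to 13 on leaving out 1 library. With at least 5 CPM in 3 libraries, KLF5, KLF8, KLF12 and KLF13 were not tested, which leaves 12 calls. The number lower in lambs was 1 when every gene with at least 1 count was tested (KLF1, adjusted p = 0.0326) and 0 to 1 on leaving out 1 library (KLF5 without lamb 2). With library totals the members' median log2 difference was 1.45, 5608 genes were higher and 1459 lower, and 79.4% of all calls were higher, against 49.3% with TMM. With the replicate number as a block, 13 members were higher, 0 were lower and their median was 0.97, with 2598 genes higher and 2755 lower. Deviations of same-numbered lambs and fetuses correlated at -0.0195, -0.119 and 0.0293 across genes, so the numbers were not taken to pair the animals. Leaving out 1 library leaves 2 animals in a stage, and in these refits 2286 to 2796 genes were higher and 2512 to 2903 lower. Depth limits what can be said of KLF1, KLF17, SP5 and EGR4, and intervals and limits on 0 counts cover counting error only.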
